A study of Mus musculus with 69 samples.

Results

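The primitive endoderm genes examined here were Gata4, Gata6, Sox17, Sox7, Pdgfra, Dab2, Foxa2, Lama1, Lamb1 and Sparc. They were chosen by name, and all 10 were present among the 16263 genes of the deposited mRNA-seq count table. The cells were J1 mouse embryonic stem cells (ESCs), a 129S4/SvJae line derived from the inner cell mass of the blastocyst. The table held 2 libraries each of wild-type (WT) cells and of 2 edited clones, Mut18 and Mut43, and each clone carried the H3.3K27R change, an arginine in place of lysine 27 of the histone variant H3.3, introduced by CRISPR-Cas9 into both alleles of H3f3a and H3f3b. Each mutant line is a single clone, and the same WT libraries served both clones. The submitters call the paired libraries of a line independent biological replicates without naming separate cultures, and p-values measure the spread between these libraries. The cells were kept on feeder cells and grown without them for the last passages before harvest. ATAC-seq, which maps open chromatin, gave 1 peak list for each of 2 libraries per line, and the H3K27ac ChIP-seq libraries of the series were not analysed here.

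Primitive endoderm is the extraembryonic layer that forms beside the epiblast in the blastocyst and gives rise to visceral and parietal endoderm. FGF4 from epiblast-fated cells signals through FGF receptors and the MAPK cascade, GATA6 and then GATA4, SOX17 and SOX7 are turned on, and the cells express the receptor PDGFRA, the adaptor DAB2 and large amounts of laminin, type IV collagen and SPARC, the material of a basement membrane. ESC cultures can contain a few cells that express these genes. Foxa2 is also a regulator of definitive endoderm and node, and laminins, Sparc and Pdgfra are also expressed by fibroblasts, so the names alone do not identify primitive endoderm in a bulk sample.

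The 6 libraries held between 14992756 and 15143998 counted reads. A change in the coding sequence cannot be read from gene counts, so the genotype rests on the labels. H3f3a was lower by 0.23 on the log2 scale in the mutants (log2 fold change of -0.23 ± 0.04, SE). H3f3b did not pass the test with both clones together (0.03 ± 0.05). It was at -0.07 in Mut18 (edgeR adjusted p = 0.210) and at 0.12 in Mut43 (adjusted p = 0.0162). The 5 ESC markers used (Pou5f1, Nanog, Sox2, Zfp42, Esrrb) reached a sum of 34342 and 35880.2 normalised read counts in WT and of 40074.5 to 42270.5 in the mutants. They did not all move the same way. Pou5f1 fell by 0.27 on the log2 scale, the others rose, and Zfp42 rose most, by 0.72. Chromosome 11 stood apart from the other autosomes. Its 1182 tested genes had a median log2 fold change of 0.39, against -0.00 over all 14061. Sparc and H3f3b lie on it.

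Lama1, the laminin alpha 1 chain, was the one primitive endoderm gene that rose more than 2-fold in the mutants, and Foxa2 was the one that fell more than 2-fold. Dab2 fell by 0.93 on the log2 scale, just short of 2-fold, and Gata4 rose by 0.50. Gata6, Sox7, Pdgfra, Lamb1 and Sparc did not pass the test, and Sox17 had too few reads to be tested. A gene was called when edgeR's quasi-likelihood test gave a Benjamini-Hochberg adjusted p under 0.05 and the level moved beyond 2-fold. By that rule 2 of the 9 tested primitive endoderm genes were called, 1 up and 1 down, against 8.93% of all genes tested (3.28% up, 5.65% down). With adjusted p alone, 2 rose and 2 fell, against 48% of all genes (23.5% up, 24.5% down). Gata4 and Lama1 were higher, and Dab2 and Foxa2 lower, in all mutant libraries than in both WT libraries, and 59.8% of all tested genes were separated in this way. The median log2 fold change of the 9 was -0.13, beside -0.00 for all genes, and it was 0.03 without WT replicate 1 and -0.35 without WT replicate 2. Foxa2 passed the filter on low counts only through its WT libraries and so had to differ, and these counts and the median include it. In a bulk sample, fewer cells of a type and less RNA per cell cannot be told apart.

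**Figure D1:**
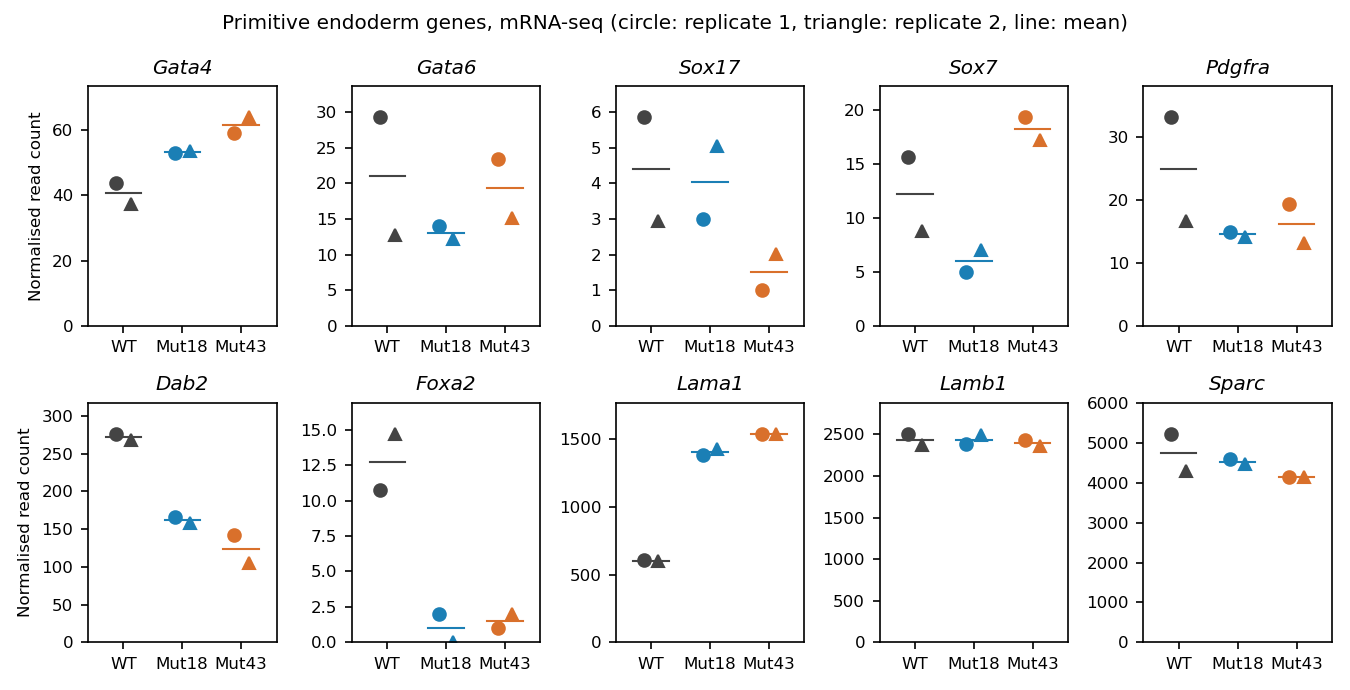
Normalised read counts (vertical axis, from 0, a separate scale for each gene) of the 10 primitive endoderm genes in WT, Mut18 and Mut43. Circles are replicate 1, triangles replicate 2 and lines the mean of both; Lama1 was between 599 and 606 in WT and between 1383 and 1538 in the mutants, while Gata6 and Pdgfra were highest in WT replicate 1.

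The levels differed between genes by 3 orders of magnitude. Levels between genes are compared in RPKM, read counts scaled by summed exon length and by library size. In WT, Sparc had 83.3 ± 11.7 RPKM (SD, n = 2), above 96.3% of the tested genes. Lamb1 followed with 16.3 ± 0.66, Lama1 with 4.13 ± 0.04 and Dab2 with 2.46 ± 0.05. The 5 transcription factors and Pdgfra all lay under 1 RPKM in WT: Gata4 at 0.69 ± 0.08, Foxa2 at 0.356 ± 0.08, Sox7 at 0.246 ± 0.10, Gata6 at 0.214 ± 0.12, Pdgfra at 0.165 ± 0.08 and Sox17 at 0.061 ± 0.03. The median tested gene had 4.67 RPKM, and only Sparc and Lamb1 of the 10 lay above it. In WT the ranges of Foxa2 and Sox7, of Sox7 and Gata6, and of Gata6 and Pdgfra overlapped, and the other neighbours in this order did not. In the mutants Lama1 stood at 10.1 ± 0.54 RPKM (SD, n = 4), the order of the top 5 genes was as in WT, the ranges of Dab2 (1.29 ± 0.24) and Gata4 (0.98 ± 0.09) overlapped, and Foxa2 moved from place 6 to place 10 at 0.035 ± 0.03.

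GATA6 is the zinc-finger factor that starts the primitive endoderm programme. Gata6 (chr18:11052064-11085635, + strand, GRCm38) had normalised read counts of 29.3 and 12.7 in WT. Its counts were 14.0 and 12.1 in Mut18 and 23.4 and 15.2 in Mut43. WT replicate 1 was the highest of the 6 libraries and WT replicate 2 lay among the mutants. On the log2 scale the mutants differed from WT by -0.38 ± 0.35 (edgeR adjusted p = 0.396), and without WT replicate 1 it turned to 0.34 (adjusted p = 0.609). A gene on the opposite strand, 1010001N08Rik, overlaps Gata6, and the strand setting of the counting is not given in the sources used here.

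GATA4 acts with GATA6 and maintains the endoderm state. Gata4 (chr14:63198922-63271692, - strand) was at 43.9 and 37.2 in WT, whereas Mut18 had 53.1 and 53.6 and Mut43 had 59.0 and 63.9. Each mutant library was above both WT libraries, as was the case for 29.4% of tested genes. The mutants exceeded WT by a log2 fold change of 0.50 ± 0.19 (edgeR adjusted p = 0.0347), and the 95% interval ran from 0.11 to 0.89. Against WT it was 0.60 in Mut43 (adjusted p = 0.0223) and 0.39 in Mut18 (adjusted p = 0.152), and the difference between the clones, 0.20, had an interval from -0.21 to 0.62. Gata4 no longer passed adjusted p under 0.05 without WT replicate 1 (adjusted p = 0.0560), WT replicate 2 (0.213), Mut43 replicate 1 (0.0640) or Mut43 replicate 2 (0.0779). Nor did it pass when libraries were scaled by their totals (0.0509) or in the DESeq2 test (0.130).

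SOX17 and SOX7 are related HMG-box factors of the SoxF group that follow GATA6. Sox17 (chr1:4490931-4497354, - strand) had 6 and 3 reads in WT, while Mut18 had 3 and 5 and Mut43 had 1 and 2, which cannot show a difference at this depth. A transcript on the opposite strand, Gm37587, overlaps it. Sox7 (chr14:63943673-63950732, + strand) was at 15.6 and 8.82 normalised read counts in WT, at 5.01 and 7.08 in Mut18 and at 19.3 and 17.3 in Mut43. WT lay between the clones, with Mut18 lowest and Mut43 highest, and no library of one line fell within the range of another. The mean of both clones hardly differed from WT (log2 fold change -0.01 ± 0.46, edgeR adjusted p = 0.988). Mut43 was above Mut18 by 1.58 on the log2 scale (95% confidence interval 0.62 to 2.54), which did not pass the correction over all genes (adjusted p = 0.210). Sox7 passed the filter on low counts only with its Mut43 libraries, which favours a higher level in Mut43. The values between the clones thus describe the reads and are no test. Between the clones no primitive endoderm gene was called, against 0.00711% of all genes, and with adjusted p alone none passed, against 0.327%.

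FOXA2 is a forkhead factor of visceral and definitive endoderm. Foxa2 (chr2:148042877-148046969, - strand) had 11 and 15 reads in WT, against 2 and 0 for Mut18 and 1 and 2 for Mut43, so every mutant library lay below both WT libraries. Summed over libraries these were 26 reads in 2 WT libraries and 5 in 4 mutant libraries. The mutant level was 0.0994 of the WT level, with an exact 95% counting interval of 0.0298 to 0.263, which covers counting error only. Foxa2 passed the filter on low counts only through its WT libraries and so had to differ. The fitted log2 fold change was -3.21 ± 0.61, with -3.50 in Mut18 and -2.96 in Mut43. These values describe the reads above and are no test of a fall.

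PDGFRA is the receptor for PDGF-A on primitive endoderm cells and is also abundant on fibroblasts. Pdgfra (chr5:75152292-75198215, + strand) was at 33.2 and 16.7 in WT, against 15.02 and 14.2 for Mut18 and 19.3 and 13.2 for Mut43. WT replicate 1 again stood above the other 5 libraries, and WT replicate 2 lay within the mutants. A log2 fold change of -0.69 ± 0.31 did not pass the test (edgeR adjusted p = 0.0768). Without WT replicate 2 it was -1.09 (adjusted p = 0.0136), and without WT replicate 1 it was -0.11 (adjusted p = 0.872), so the value depends on which WT library is used. The antisense genes Gm42802 and Gm42803 overlap Pdgfra.

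DAB2 is an endocytic adaptor that helps endoderm cells to sort and polarise at the surface. Dab2 (chr15:6299788-6440712, + strand) was at 276 and 269 in WT, whereas Mut18 had 166 and 158 and Mut43 had 142 and 106. All 4 mutant libraries were below both WT libraries, as for 30.4% of tested genes. Dab2 had a log2 fold change of -0.93 ± 0.12 (edgeR adjusted p = 2.43e-06), and the 95% interval ran from -1.18 to -0.68. Set against WT, Mut18 was at -0.75 and Mut43 at -1.13, and Dab2 passed the 2-fold limit in Mut43 alone. The difference between the clones, -0.39, did not pass the correction (adjusted p = 0.321). Over the alternatives the Dab2 log2 fold change ranged from -1.002 to -0.80. The antisense gene Gm16311 overlaps Dab2.

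RefSeq annotates 2 promoters of Dab2 that differ in base composition and in accessibility, and both are shown for that reason. Each run is the 250 bases upstream of a start site on the + strand of GRCm38.p6, written 5′ to 3′. The reference is a C57BL/6J genome, whereas the cells are 129S4/SvJae. Capitals mark a GATA word, the binding letters of the GATA factors (AGATAA, with T allowed in the first place and G in the last, on either strand).
Dab2 upstream promoter, chr15:6299539-6299788: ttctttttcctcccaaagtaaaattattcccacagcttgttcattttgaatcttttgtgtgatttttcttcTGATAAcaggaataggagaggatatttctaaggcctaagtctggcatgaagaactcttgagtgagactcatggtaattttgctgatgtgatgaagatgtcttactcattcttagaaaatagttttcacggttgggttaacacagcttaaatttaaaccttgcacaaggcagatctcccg
Dab2 downstream promoter, chr15:6386498-6386747: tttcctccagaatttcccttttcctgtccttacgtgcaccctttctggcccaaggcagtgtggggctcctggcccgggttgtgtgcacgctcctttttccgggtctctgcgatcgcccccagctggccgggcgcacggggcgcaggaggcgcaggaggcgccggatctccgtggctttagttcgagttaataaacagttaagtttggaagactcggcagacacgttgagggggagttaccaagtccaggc
The upstream promoter is 36.8% G+C with 2 CpG, held 1 GATA word and overlapped no ATAC-seq peak in any library. The downstream promoter is 60% G+C with 17 CpG, held none of the words searched and lay in a peak in all 6 libraries. Over all 32851 promoters of the table, the median was 52.4% G+C with 6 CpG, and 26.5% held a GATA word. A match is a description of letters and shows no binding.

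Lama1 encodes the alpha chain of laminin-111, the laminin that early endoderm secretes, and is the chain most restricted to embryonic basement membranes. Lama1 (chr17:67697259-67822647, + strand) was at 606 and 599 in WT, while the Mut18 libraries had 1383 and 1423 and the Mut43 libraries 1536 and 1538. The lowest mutant library was more than 2-fold above the highest WT library. Lama1 had a log2 fold change of 1.29 ± 0.06 (edgeR adjusted p = 5.04e-13), with a 95% interval of 1.17 to 1.40. It was 1.22 in Mut18 and 1.35 in Mut43. The clones differed by 0.13 (interval 0.03 to 0.23), which did not pass the correction (adjusted p = 0.400). Across the alternatives the Lama1 value stayed between 1.25 and 1.32.

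Lamb1 encodes the beta chain that pairs with the alpha 1 chain in laminin-111. Lamb1 (chr12:31265234-31329644, + strand) was at 2506 and 2366 in WT, while Mut18 stood at 2386 and 2486 and Mut43 at 2428 and 2365. The groups overlapped throughout. For Lamb1 the log2 fold change was -0.01 ± 0.04 (edgeR adjusted p = 0.839), and its 95% confidence interval ran from -0.10 to 0.08. Lamc1, the gamma 1 chain that completes the trimer, was at 4979 and 4764 in WT and between 5694 and 5969.7 in the mutants (0.27 ± 0.04, adjusted p = 7.59e-06), and was named after its values were seen. The 3 chains of the same trimer had log2 fold changes of 1.29, -0.01 and 0.27.

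The Lamb1 promoter is shown as that of the laminin chain whose level did not pass the test, and capitals mark GC boxes (GGGCGG, on either strand). The window is the 250 bases upstream of the start site.
Lamb1 promoter, chr12:31265043-31265292, + strand: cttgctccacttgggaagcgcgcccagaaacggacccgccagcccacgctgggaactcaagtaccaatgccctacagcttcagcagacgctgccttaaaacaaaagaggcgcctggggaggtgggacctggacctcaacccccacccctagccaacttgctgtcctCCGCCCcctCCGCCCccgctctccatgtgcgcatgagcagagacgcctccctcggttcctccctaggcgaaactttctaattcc
It is 62% G+C with 14 CpG, held 2 GC boxes and lay in a peak in all 6 libraries. A GC box was present in 32.7% of all promoters of this length.

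SPARC is a collagen-binding matrix glycoprotein made in quantity by parietal endoderm and by fibroblasts. Sparc (chr11:55394500-55423183, - strand) was at 5222 and 4280.2 in WT, with 4586 and 4469.7 for Mut18 and 4137 and 4144 for Mut43. WT replicate 1 was the highest library, and WT replicate 2 lay between the clones. The log2 fold change was -0.13 ± 0.06 (edgeR adjusted p = 0.0720), with -0.07 in Mut18 and -0.20 in Mut43 (adjusted p = 0.00705). Sparc passed the test without WT replicate 2 (-0.26, adjusted p = 0.000435), and was at 0.02 without WT replicate 1 (adjusted p = 0.814). Relative to the chromosome 11 median the Sparc value was -0.52.

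Each clone was set against WT to see whether the changes held in both. In Mut18, 1 primitive endoderm gene rose and 1 fell by more than 2-fold, against 7.52% of all genes called (2.79% up, 4.74% down), and these were Lama1 and Foxa2. In Mut43, 1 rose and 2 fell, against 10.3% (3.49% up, 6.81% down), and these were Lama1, and Foxa2 and Dab2. Foxa2 passed the filter on low counts only through WT, so its calls in both clones are no support for a fall. With adjusted p alone the counts were 1 higher and 2 lower in Mut18, against 41.3% of all genes (20.3% up, 21% down), and 2 higher and 3 lower in Mut43, against 46.8% (22.9% up, 23.9% down). Without WT replicate 2, Gata6 (-1.15) and Pdgfra (-1.17) were also called lower in Mut18, where 4 genes then passed, and Pdgfra (-1.02) was also called lower in Mut43, where 4 passed as well.

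**Figure D2:**
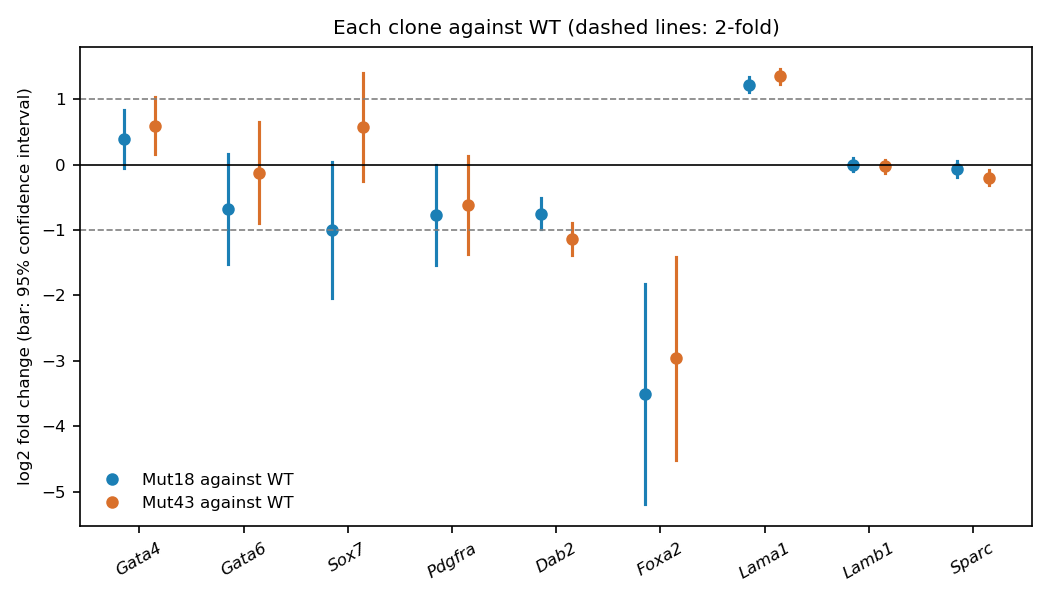
The log2 fold change of each clone against WT (vertical axis) for the 9 tested primitive endoderm genes, with bars for the 95% confidence interval and dashed lines at 2-fold. Lama1 lay above the upper line in both clones, Foxa2 lay below the lower line in both, and Sox7 had opposite signs in Mut18 (-1.003) and Mut43 (0.58).

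The gap between the WT libraries was measured for each gene as the ratio of WT replicate 1 to WT replicate 2, with an exact interval for counting error. Of the 10 primitive endoderm genes, 9 were higher in WT replicate 1, and Foxa2 was the exception. Over all tested genes 49.6% were higher in WT replicate 1. The ratio was 2.299 for Gata6 (95% interval 1.16 to 4.80), 1.99 for Pdgfra (1.08 to 3.80), 1.22 for Sparc (1.17 to 1.27) and 1.06 for Lamb1 (1.00 to 1.12). For these 4 genes the interval excluded 1, as it did for 13.9% of all tested genes (7.05% with WT replicate 1 higher). The intervals hold counting error only, and the WT libraries differed by a chi-square of 3.45 per gene where counting error alone gives about 1. The ratios of Sox17 (1.99, interval 0.43 to 12.3) and Sox7 (1.77, interval 0.74 to 4.55) were of similar size on fewer reads, and their intervals included 1. Lama1 and Dab2, the abundant genes that changed, had log2 gaps of 0.02 and 0.04, and Gata4 had 0.24. The median log2 gap of the 10 was 0.26 against -0.0013 over all tested genes, and the median absolute gap was 0.361 against 0.098. The median absolute gap of the same 10 was 0.078 in Mut18 and 0.296 in Mut43, against 0.098 and 0.094 over all tested genes. The values over all tested genes are not matched for read depth, and genes with few reads have wider gaps from counting alone. In Mut18 and in Mut43, 5 of 10 were higher in replicate 1. The interval excluded 1 for none of them in Mut18 and for Dab2 in Mut43 (1.35, interval 1.04 to 1.76), against 13.2% of all tested genes in Mut18 and 10.9% in Mut43 (6.02% and 5.6% with replicate 1 higher).

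Genes that mark fibroblasts, the usual feeder cells, moved with the same WT library. Of the 22 genes on the fibroblast list, 19 were tested, and 15 of the 19 were higher in WT replicate 1. Col6a1 was at 428 and 57.8 in the WT libraries, Col6a2 at 303 and 37.2, Col3a1 at 843 and 257, and Postn at 288 and 111. Thy1, Twist1, Prrx1 and Fn1 were not higher in WT replicate 1, and Acta2 and Tagln differed by ratios of 1.06 and 1.01. The sum of the 10 defining markers was 6869 and 5479 in WT, against 4849 and 4516 for Mut18 and 3456 and 3173 for Mut43. Lum was at 0 in WT replicate 2, Mut18 replicate 2 and Mut43 replicate 2, and the other 9 defining markers were detected in every library. Between mutants and WT, 16 of the 19 fell and 1 rose at adjusted p under 0.05, against 24.5% and 23.5% of all tested genes. Their median log2 fold change was -0.85, and -0.70 without WT replicate 1. Dcn, among those that fell, passed the filter on low counts only with its WT libraries, at 40 and 16 reads in WT and 4 to 11 in the mutants. The part of fibroblast RNA in the levels of Gata6, Pdgfra, Sparc, Lamb1, Dab2 and Lama1 was not tested. For Lama1 and Dab2, the log2 fold changes without WT replicate 1 were 1.30 and -0.91. WT replicate 2 still had a higher sum of the defining markers than each mutant library, so these 2 values do not show the part of fibroblast RNA.

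**Figure D3:**
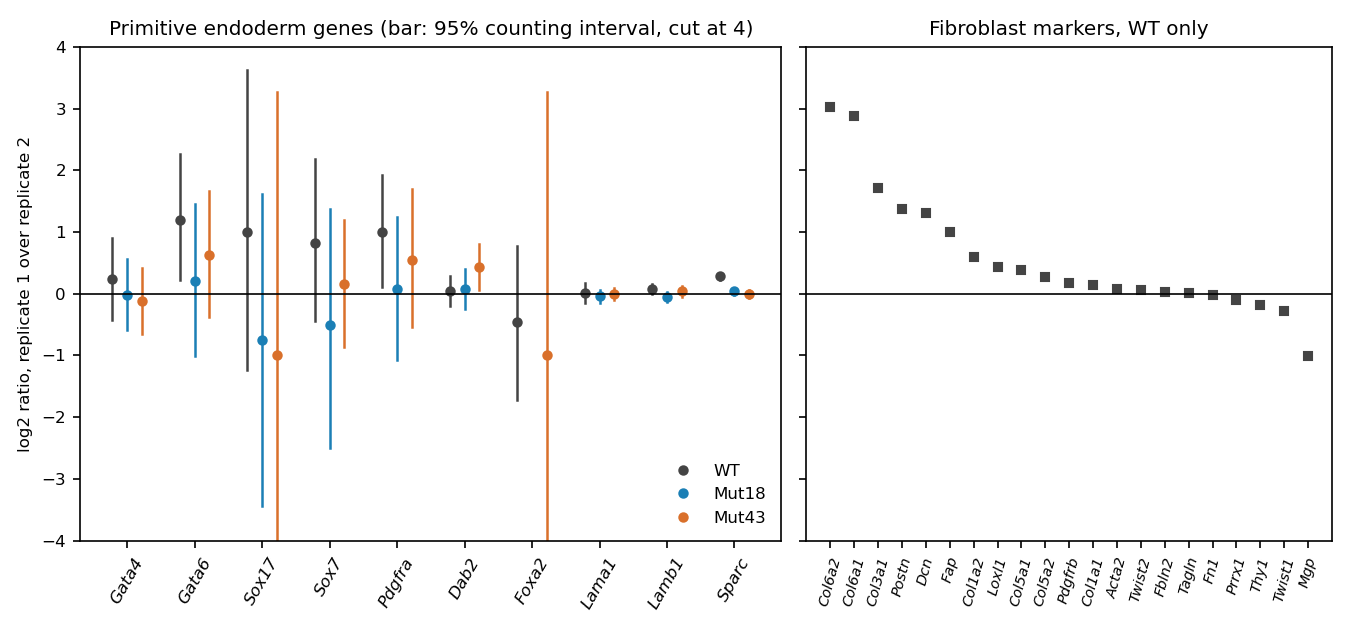
The log2 ratio of replicate 1 to replicate 2 (vertical axis) for the 10 primitive endoderm genes in each line (left, bars are 95% counting intervals, drawn to 4 at most; Foxa2 in Mut18 has no ratio) and for fibroblast markers with reads in both WT libraries (right). In WT all primitive endoderm genes but Foxa2 lay above 0, and the fibroblast markers ran from Col6a2, with a ratio of 8.13, to Mgp, with 0.498.

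Accessibility at the same genes was read from the ATAC-seq peak lists, in which the score of a peak is -log10 q and none lies under 6. A peak within 500 bp of an annotated start site was present in all 6 libraries for 7 of the 10 genes, against 80.3% of 14757 protein-coding genes. Both WT lists had a peak at all 10, the Mut18 lists at 8 and 7, and both Mut43 lists at 9. Per library, 83.1% to 88.5% of protein-coding genes had one. The regulators that were scarcely transcribed, Gata6 and Sox17, had start-site peaks in every library, at -log10 q of 10.6 to 15.9 and 16.3 to 20.4. The Sox17 region overlapped a coding exon and was centred 4441 bp downstream of the most 5′ start site, so it lay at another annotated start. The longest list was that of WT replicate 1, with 78536 peaks against 63588 to 69811 in the others. With lists of equal length 7 genes again had a peak in all 6.

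The genes without a peak in some library were Sox7, Gata4 and Foxa2. Sox7 had start-site peaks in both WT libraries and in no mutant library. This pattern was found at 0.888% of protein-coding genes. It depended on list length, since with the strongest 63588 peaks of every library Sox7 had no start-site peak in any of the 6. The strongest Sox7 peaks, with -log10 q of 13.4 in WT replicate 1 and 9.41 in WT replicate 2, lay in different regions. The start-site region shared by both WT libraries had 9.15 and 8.92. Sox7 RNA, by contrast, was lowest in Mut18 and highest in Mut43. Gata4 had peaks of 13.6 and 10.3 in WT and 13.3 and 11.5 in Mut43 and none in Mut18. Foxa2 had 16.2 and 15.4 in WT, 11.4 in Mut18 replicate 1, 12.7 and 13.1 in Mut43, and none in Mut18 replicate 2. None of the scores at these 3 genes passed 16.2.

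Among the 7 genes with a peak in every library, the 4 mutant scores were above both WT scores for 1 (background 1.26% of promoters) and below both for 2 (background 25.1%). The first was Lama1, at 44.2 and 35.0 in WT against 46.3 and 46.8 for Mut18 and 47.4 and 45.5 for Mut43. The others were Dab2, at 44.9 and 42.4 in WT against 26.5 to 38.1 in the mutants, and Sparc, at 43.8 in both WT libraries against 31.6 to 39.9. By the fold enrichment of the same peaks, Lama1 and Pdgfra were above both WT libraries in all mutants, against 17.5% of promoters, and no gene was below, against 4.32%. It overlapped between groups for Dab2 (10.04 and 11.9 in WT, 9.47 to 11.4 in the mutants) and for Sparc. For Lama1 it was 7.28 and 7.79 in WT and 8.73 to 9.27 in the mutants. The -log10 q scores depend on depth, and no test is given, since the smallest p of an exact 2-sided permutation test of 2 libraries against 4 is 0.133.

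**Figure D4:**
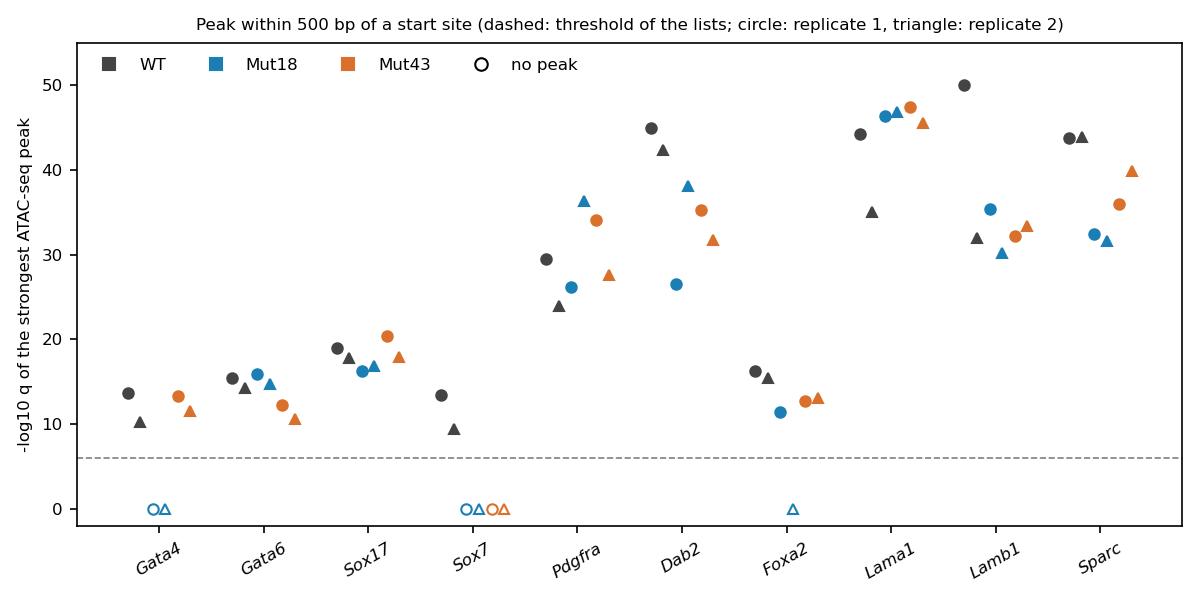
The -log10 q of the strongest ATAC-seq peak within 500 bp of a start site (vertical axis) for each primitive endoderm gene and library. Open symbols at 0 mean that no peak was listed, and the dashed line is the threshold of the lists; open symbols occur for Gata4 in Mut18, for Sox7 in both clones and for Foxa2 in Mut18 replicate 2.

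Within 20 kb of the 10 genes, peaks merged over libraries gave 42 regions. Of these, 23 were present in all 6 libraries, 2 in both WT and no mutant library, and 0 in all 4 mutant and no WT library. The strongest region at Lama1 lay in an intron at chr17:67741361-67741615, with -log10 q of 81.6 and 89.2 in WT and 76.0 to 84.5 in the mutants. One of the 2 regions found only in WT was at the Sox7 start site, and the other lay within Lama1 and overlapped a coding exon, at -log10 q of 10.4 and 7.94. Neither was in any library when every list was limited to its strongest 63588 peaks. Beside the promoter, Foxa2, Dab2, Gata4 and Sparc had regions, present in all 6 libraries, whose scores separated WT from mutants. These regions were chosen after their values were seen. Among promoters with a peak in all 6 libraries, 25.1% had all mutant scores below both WT scores and 1.26% above. No such share is given for other regions. The regions below are therefore described only, and no excess over other regions is shown. A Foxa2 region 6001 bp from the nearest start site had 42.4 and 36.3 in WT and 14.1 to 25.7 in the mutants. A Dab2 intron region had 32.5 and 36.3 in WT and 18.1 to 25.6 in the mutants, while its fold enrichment overlapped between them. A Gata4 intron region had 27.9 and 27.2 in WT and 18.5 to 27.1 in the mutants, and its fold enrichment also overlapped. Outside Sparc, a region 4998 bp from the nearest start site had 26.6 and 26.5 in WT and at most 20.1 in the mutants. Another, 31971 bp away, was higher in the mutants, at 16.4 and 14.2 in WT and 22.4 to 28.8 in the mutants. Its fold enrichment was 4.54 and 5.09 in WT and 5.71 to 6.31 in the mutants.

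Genes downstream of primitive endoderm moved both ways. Of 25 visceral endoderm genes, 14 were tested, of which 3 rose and 5 fell at adjusted p under 0.05, against 23.5% and 24.5% of all genes. The median was -0.38, and -0.03 without WT replicate 1, where 16 genes were tested. Lrp2, the megalin receptor of absorptive endoderm, was at 2258 and 2194 in WT and between 1149 and 1229.9 in the mutants (-0.91 ± 0.04, edgeR adjusted p = 1.12e-12). Eomes, a T-box factor, fell by 0.73, and Apoe, an apolipoprotein and the most abundant gene of the list, fell by 0.45. Tfpi, an inhibitor of coagulation, rose by 0.72. Hnf4a, the hepatocyte nuclear factor of visceral endoderm, had 1 and 3 reads in WT and 6 to 13 in the mutants. It is among the 3 that rose, but it passed the filter on low counts only through the mutant libraries. No fold change is given for it, and it was named after its values were seen. Of 16 parietal endoderm genes, 14 were tested, and 2 rose and 7 fell, against 23.5% and 24.5% of all genes. The median was -0.24. Fst, the activin inhibitor follistatin, was at 256 and 231 in WT and 73.1 to 94.1 in the mutants (-1.60 ± 0.12), and Ctsl, cathepsin L, fell by 0.75. Fabp3, a fatty acid binding protein, rose by 0.84, and Krt19, a keratin on chromosome 11, by 0.35, which did not pass without WT replicate 1 (0.23, adjusted p = 0.145). Vim, the intermediate filament vimentin and the most abundant gene of the list, fell by 0.59.

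Basement membrane genes other than the 3 matrix genes above fell more often than they rose. All 24 were tested, 4 rose and 15 fell at adjusted p under 0.05, against 23.5% and 24.5% of all genes, with a median of -0.28. None rose and 2 fell more than 2-fold, against 3.28% and 5.65%, and Lama2 was among the 2. It had 24 and 16 reads in WT and 1 to 9 in the mutants. It thus passed the filter on low counts only through its WT libraries and had to differ. Without WT replicate 1 the median of the 24 genes was -0.26. Lama4, a laminin chain of vessels and mesenchyme, was at 195 and 53.9 in WT and 19.3 to 36.4 in the mutants, a log2 fold change of -2.21 that became -1.002 without WT replicate 1. Pxdn, a peroxidase that cross-links type IV collagen, fell by 0.93. Smoc1, a matricellular protein, rose by 0.47 (0.30 without WT replicate 2 and 0.69 without WT replicate 1), and P4hb, a subunit of prolyl hydroxylase on chromosome 11 and the most abundant of the list, rose by 0.59.

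Among 20 genes of FGF and PDGF signalling, upstream of the programme, 4 rose and 7 fell, none by more than 2-fold, with a median of -0.08. The share that passed is near the 48% of all genes. Dusp6, a MAPK phosphatase and target of FGF signalling, was at 1801 and 1771 in WT and 962 to 1050.2 in the mutants (-0.85 ± 0.05, edgeR adjusted p = 1.02e-11). Kit rose by 0.68, and Grb2, the adaptor needed for Gata6 expression in the blastocyst, rose by 0.61 on chromosome 11. Of 16 genes on the epiblast list, 12 rose and 1 fell at adjusted p under 0.05, against 23.5% and 24.5% of all genes. Their median was 0.28. More than 2-fold, 2 rose and 0 fell, against 3.28% and 5.65%. Dppa3 was at 254 and 231 in WT and 812 to 890.0 in the mutants (1.85 ± 0.08), Prdm14 rose by 1.29, Pou5f1 fell by 0.27 and Tdgf1, the most abundant, rose by 0.10, which did not pass without WT replicate 1 (adjusted p = 0.128).

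**Figure D5:**
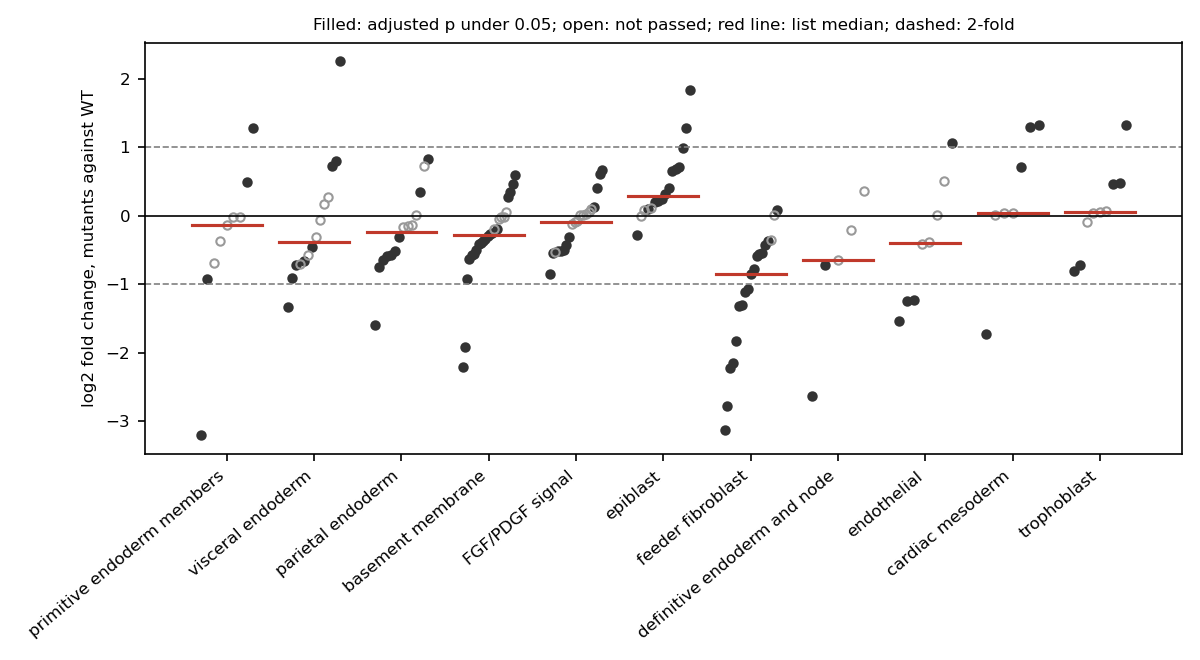
The log2 fold change of mutants against WT (vertical axis) for each tested gene of the primitive endoderm list and of the 10 other lists; filled points passed adjusted p under 0.05 and red lines are medians. Most epiblast genes lay above 0 (median 0.28), most fibroblast markers below 0 (median -0.85), and the primitive endoderm genes ran from Foxa2 at -3.21 to Lama1 at 1.29.

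Genes of other lineages were counted in the same way, against the shares of all genes given above. Definitive endoderm and node genes, the other setting in which Foxa2 is used, had 5 of 12 tested, with 0 higher and 2 lower and T (brachyury) at -2.63. Of 8 tested endothelial genes 1 rose and 3 fell, with Kdr at -1.54, Flt1 at -1.23 and Pecam1, on chromosome 11, at 1.07. Of 7 tested cardiac mesoderm genes 3 rose and 1 fell (Myh6 at 0.71), and none fell without WT replicate 1, and of 9 trophoblast genes 3 rose and 2 fell (Tfap2c at 0.48, Tead4 at 0.46), and Tead4 did not pass without WT replicate 1 (0.30, edgeR adjusted p = 0.158).

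The genes whose profile over the 6 libraries was most like that of each abundant primitive endoderm gene were found by the root mean square difference of centred log2 CPM, over 11076 genes. These were Sntb2 (0.039) and Hexim2 (0.041) for Gata4, Rnf219 (0.058) and Hmgcll1 (0.070) for Dab2, and Ubash3a (0.031) and Ly6g6e (0.053) for Lama1. For Lamb1 they were Rab26os and Ift74 (both 0.013), and for Sparc Hivep1 (0.039) and Dclre1b (0.041). The libraries share depth and scaling, and the likeness is a description over 6 points.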

How the data were processed

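Per the labels, 6 mRNA-seq and 6 ATAC-seq libraries of J1 ESCs were used, 2 per line, and samples were grouped by their titles. For mRNA-seq the authors deposited 1 count table, raw and not normalised, made from reads aligned to mm10 joined with dm6. For ATAC-seq the authors deposited 1 peak list per library, with the fold enrichment and -log10 q of each peak. The submitters' processing notes name STAR, Bowtie2 2.3.4.2, SAMtools, MACS2, DESeq2 and deepTools 3.3.0 without roles. The counting program, its strand setting and the gene annotation are not given in the sources used here. No adjustment of peaks for the cut offset of the transposase is stated.

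Counts were analysed with edgeR 4.0.16 in R 4.3.3. Genes were kept by the expression filter (minimum count 10, minimum total 15), scaled by TMM and fitted by quasi-likelihood, 2 WT against 4 mutant libraries, with Benjamini-Hochberg adjustment over all 14061 genes kept. Clones were compared in a fit with 3 groups. Errors of log2 fold changes are SE, and intervals are at 95%. Normalised read counts were scaled to the mean library, and 0.5 was added for the log2 gap between libraries. Exact (Clopper-Pearson) intervals cover counting error only. The script was tested on simulated counts. Totals of about equal size per library give similar precision, so genes under 50 reads carry the widest intervals. Peaks were assigned to GENCODE M21 start sites (GRCm38) within 500 bp, merged over libraries at 1 bp of overlap, and taken up to 20 kb from a gene. Sequences came from GRCm38.p6, with RefSeq promoters matched for 5 of the 10 genes (Foxa2, Pdgfra, Sparc, Lamb1, Dab2). Symbols were matched to GENCODE directly for 15618 genes and by RefSeq synonym for 477, and 168 had no match.

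All 10 primitive endoderm genes are named. From each other list the text names up to 2 genes that rose and 2 that fell with the largest change at adjusted p under 0.05 and a mean of at least 50 normalised counts, and the most abundant gene. In the list of FGF and PDGF signalling, 2 genes named by this rule are not reported here. Lamc1, Lama2, Hnf4a and further fibroblast markers were named after their values were seen. The primitive endoderm genes, the other lists and the marker sets were chosen with earlier results of these data known. The alternatives were other scaling, filters, a DESeq2 1.42.0 Wald test, a replicate block, each library left out in turn, other call rules, chromosome centring and other peak rules.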

Additional observations from a re-analysis of the deposited data

Results flagged for a closer look

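In 57 genes of the lists, the 4 mutant libraries were searched for 1 library far from the others, and 3 genes had one. Chance gives about 1 in 20. The gap divided by the range, against a critical value of 0.829, was 0.867 for Ctsl, 0.858 for Fn1 and 0.837 for Thy1. Ctsl had 1725 normalised read counts in Mut43 replicate 1 and 1809.5 to 1823 in the other mutant libraries, Fn1 had 11545 in Mut18 replicate 1 against 11688 to 11712, and Thy1 had 121.8 in Mut43 replicate 2 against 84.0 to 90.1. None of them was a primitive endoderm gene.

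Among the same 57 genes, the clones differed from each other in 4 by edgeR's quasi-likelihood test with adjustment over all genes. Over all tested genes 0.327% passed this test. Relative to Mut18, Mut43 was lower in Vim by a log2 fold change of -0.34 (adjusted p = 0.000501), in Col1a1 by -0.41 (adjusted p = 0.000132) and in Acta2 by -0.62 (adjusted p = 1.09e-05). It was higher in Tbx3, a T-box factor, by 0.38 (adjusted p = 0.00694). In each of these 4 genes both Mut43 libraries lay on the same side of both Mut18 libraries. The genes were picked by the test on these libraries, so this is no further support. Genes of the lists outside the 57 also passed, such as Serpinh1 at -0.32 (edgeR adjusted p = 0.0399).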

How the results depend on the processing

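The calls of primitive endoderm genes, 2 in the mutants (1 up, 1 down), 2 in Mut18 and 3 in Mut43, were within 1.5 times of these counts under other scaling, no filter, DESeq2 and adjusted p under 0.01. With a mean of at least 50 counts they were 1 in the mutants and 1 in Mut18, since Foxa2 is then not tested, and without a fold threshold 4 in the mutants. Leaving out 1 library gave 2 to 3 in the mutants, 2 to 4 in Mut18 (4 without WT replicate 2), 2 to 4 in Mut43 and 0 between the clones. Without a fold threshold the other lists had 88 calls (32 up, 56 down) in place of 24 (6 up, 18 down), and 22 to 27 with 1 library left out. Over all genes, the mean filter left 166 higher and 332 lower calls in place of 461 and 794. Promoter peaks in all 6 libraries fell from 7 to 3 with the most 5′ start site only, and were 7 with lists of equal length, where Sox7 had none in any library.

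Directions that turned were those of values near 0 or of genes with a WT gap. Sox7 (-0.01) was at 0.014 with scaling without chromosome 11, 0.0012 with no filter and 0.052 after chromosome centring, and ran from -0.35 to 0.46 with 1 library left out. Lamb1 (-0.01) was at 0.012 and 0.028 under the same scaling and centring, and ran from -0.046 to 0.033. Gata6 ran from -0.84 to 0.34 and Sparc from -0.26 to 0.021, with both ends set by a WT library left out. A lone WT library was assumed to vary as the others do. Sparc also passed the edgeR test with library totals (adjusted p = 0.0269) and with 3 groups in the fit (adjusted p = 0.0296). Lama1 and Dab2 kept their direction and side of the adjusted p in each alternative where they were tested. Foxa2 did so too, but it passed the filter of the main fit only through its WT libraries. The cause was not tested.

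A replicate block gave 2 primitive endoderm calls in the mutants, as without it. The numbers did not pair the libraries, since correlations of same-numbered libraries were -0.066, 0.027 and -0.031. Depth limits Sox17, Sox7, Foxa2, Gata6 and Pdgfra, all under 50 reads per library.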
